A study of Mus musculus with 12 samples.

Results

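The circadian clock genes were followed in the white matter of the mouse spinal cord, in naïve tissue and in demyelinating lesions of young and middle-aged mice. Members were all rows of the count table that map to the symbols of 10 genes: Arntl (also called Bmal1), Clock, Per1, Per2, Per3, Cry1, Cry2, Nr1d1, Nr1d2 and Dbp. All 10 were found among the 46078 genes of the table and all 10 passed the filter on low counts, which kept 15866 genes. The samples were C57Bl6 mice in 4 groups of 3 pools each, naïve or injured and young or middle-aged. Each pool held laser-captured tissue of 5 mice, so the replicate was the pool and not the animal. By the study's methods young mice were 6 weeks and middle-aged mice 8 months old, injured mice were taken 72 h after the injury, and the RNA was amplified while the libraries were built. The injury, per the labels, was an injection of lysolecithin, a detergent that strips myelin, in the ventrolateral white matter. The labels name no transgene in any group, and naïve mice had no lesion. The mice lived under a light/dark cycle and lesions were made from the morning on, but the hour at which tissue was taken is not given in the sources used here, so hour of harvest and group cannot be told apart.

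The molecular clock is a loop of transcription and repression that runs in nearly every cell. ARNTL and CLOCK form a pair that binds E-boxes and switches on the Per and Cry genes, whose proteins return to the nucleus and block the pair. The same pair drives Nr1d1 and Nr1d2, which encode the nuclear receptors REV-ERBα and REV-ERBβ, and these repress Arntl in competition with the activating ROR receptors. Dbp, a further E-box target, encodes a factor that switches on genes with D-boxes, and its transcript is one of the strongest daily oscillators known. In a tissue sampled at one hour a high Arntl transcript is usually met with low Nr1d1 and Dbp, and the other way round.

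On GRCm38 the activators lie apart, Arntl at chr7:113207465-113314126 (plus strand) and Clock at chr5:76209868-76304792 (minus strand). Of the repressors, the annotation places Per1 at chr11:69095217-69109960 (plus strand), Per2 at chr1:91415982-91459324 (minus strand), Per3 at chr4:151003652-151044665 (minus strand), Cry1 at chr10:85131700-85185064 (minus strand) and Cry2 at chr2:92403646-92434043 (minus strand). The nuclear receptor genes are Nr1d1 at chr11:98767932-98775333 (minus strand) and Nr1d2 at chr14:18204054-18239127 (minus strand), and the output gene is Dbp at chr7:45705088-45710203 (plus strand). The control regions of the members hold different clock motifs. RefSeq promoters (250 bases before to 50 bases after a start, GRCm38.p6) were matched for 9 of the 10 genes, with 13 windows. Per2 was not matched. The letters searched on both strands were CACGTG (E-box), AACGTG or CACGTT (a weaker E-box form), TTATGTAA or TTACATAA and TTACGTAA (D-boxes), AGGTCA (half-site of ROR and REV-ERB), TAGGTCA (the same half-site with the T before it) and TGACGTCA (cyclic AMP element). The strands below are those of the gene, 5′ to 3′, with the matched letters in capitals. They are shown because Per3 and Cry2 fell in lesions while Cry1 did not pass the test, because Nr1d1 had the highest level per length in naïve tissue, and because Arntl is the gene on which the nuclear receptors act.
Per3, chr4:151044666-151044915, minus strand: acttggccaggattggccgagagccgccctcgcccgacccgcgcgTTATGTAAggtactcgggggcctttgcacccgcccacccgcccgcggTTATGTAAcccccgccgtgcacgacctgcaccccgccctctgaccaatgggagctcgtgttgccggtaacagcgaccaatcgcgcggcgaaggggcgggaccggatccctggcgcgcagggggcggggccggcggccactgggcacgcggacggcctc
Cry1, chr10:85185055-85185304, minus strand: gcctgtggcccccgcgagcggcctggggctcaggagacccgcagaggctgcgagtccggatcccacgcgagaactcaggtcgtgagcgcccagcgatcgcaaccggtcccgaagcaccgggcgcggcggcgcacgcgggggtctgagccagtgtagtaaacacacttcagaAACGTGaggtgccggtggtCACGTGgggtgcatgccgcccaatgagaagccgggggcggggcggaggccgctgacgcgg
Cry2, chr2:92434070-92434319, minus strand: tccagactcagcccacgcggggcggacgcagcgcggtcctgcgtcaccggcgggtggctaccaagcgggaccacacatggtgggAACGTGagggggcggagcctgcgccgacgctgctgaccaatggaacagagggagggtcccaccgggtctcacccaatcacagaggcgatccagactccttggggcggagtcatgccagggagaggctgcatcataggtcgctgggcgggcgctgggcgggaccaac
Nr1d1, chr11:98775378-98775627, minus strand: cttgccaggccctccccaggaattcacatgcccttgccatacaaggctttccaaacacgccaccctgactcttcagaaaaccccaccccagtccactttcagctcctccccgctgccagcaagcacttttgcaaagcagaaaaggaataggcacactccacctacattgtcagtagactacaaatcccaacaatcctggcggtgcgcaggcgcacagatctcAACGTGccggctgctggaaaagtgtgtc
Arntl, chr7:113207529-113207558, plus strand, a stretch just after the second listed start: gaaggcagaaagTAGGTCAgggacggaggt
Per3 held 2 D-boxes of the TTATGTAA form and no E-box of either form. At least 1 D-box of that form occurs in 0.938% of all 32851 promoters. Cry1 held an E-box (7.15% of all promoters) and the weaker form (4.68%), whereas Cry2 and Nr1d1 held only the weaker form. Arntl held the TAGGTCA core (2.61% of all promoters) and with it the half-site. Of the members not printed, Per1 held an E-box and a half-site, and Clock and Nr1d2 held a half-site, which 16.3% of all promoters contain. Dbp held none of these letters in its window, and no member held the cyclic AMP element (1.79%) or the TTACGTAA D-box (0.119%). These matches are descriptions of letters in one window and do not show that a factor was bound.

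The pools held between 9834447 and 12807437 counts, and the members' counts ran from 50 (Per2) to 1548 (Clock). A count of 3, the floor used here, is 0.305 CPM of the library total or less in every pool. Levels are given as CPM, counts scaled to the library size with TMM factors, in the order replicate 1, 2 and 3. Differences are log2 fold changes with standard errors and adjusted p-values of the edgeR quasi-likelihood test, adjusted over all 15866 genes. The p-values measure the spread between these pools, since the labels do not say whether the pools of a group were collected apart from each other.

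**Figure D1:**
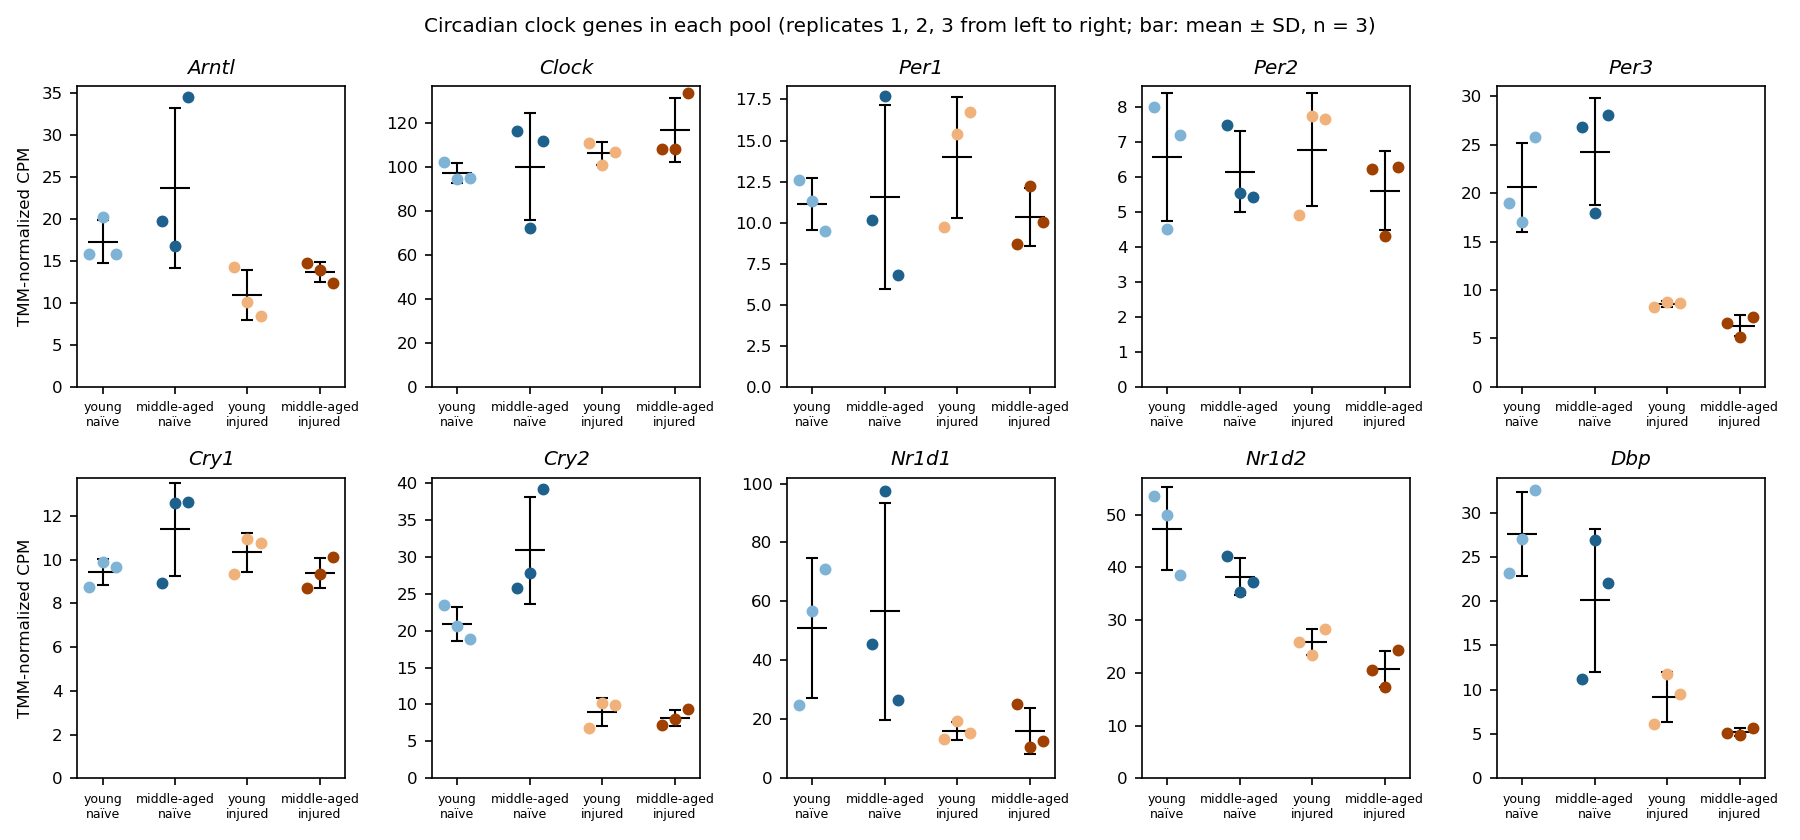
Level of each of the 10 clock genes in every pool (y axis, TMM-normalized CPM from 0, a separate scale per gene), with replicates 1 to 3 from left to right in each of the 4 groups on the x axis. Bars are the mean ± SD of 3 pools. The injured pools of Per3, Cry2, Nr1d1, Nr1d2, Dbp and Arntl sit below the naïve pools of the same age, whereas those of Clock, Per1, Per2 and Cry1 overlap them.

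Members were called only between lesion and naïve tissue, the comparison in which most calls over all genes also lay. In young mice 6 of the 10 members were lower and 0 higher in the lesion, against 26.3% of all genes lower, 28.3% higher and 54.6% changed in either direction. In middle-aged mice the same 6 were lower and 0 higher, against 29.3% lower, 29.2% higher and 58.5% in either direction. The 6 were Per3, Cry2, Nr1d1, Nr1d2, Dbp and Arntl, and in each of them all 3 injured pools lay below all 3 naïve pools of the same age, as did 32.2% of all genes in young and 29.7% in middle-aged mice. The median log2 fold change of the 10 members was -0.76 in young and -0.84 in middle-aged mice, while the median over all genes was 0.00054 and -0.03. Lower levels in a lesion can reflect fewer cells of a type or less RNA per cell, and in these bulk pools the 2 cannot be told apart.

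Of the E-box repressors, Per3 was among the members with the largest differences. PER3 is the member of the Period family whose loss leaves the central clock nearly intact. The Per3 level was 18.9, 17.04 and 25.8 CPM in naïve and 8.22, 8.76 and 8.66 CPM in injured pools of young mice. In the middle-aged pools it was 26.9, 17.9 and 28.1 CPM for naïve and 6.64, 5.11 and 7.17 CPM for injured mice. The 3 young injured pools were nearly equal, and no injured pool of either age came near the lowest naïve pool. Per3 fell by 1.27 on the log2 scale in young mice (SE 0.22, edgeR adjusted p = 0.000228) and fell by 1.95 in middle-aged mice (SE 0.23, adjusted p = 4.57e-06). The mean CPM fell by 58.5% in young and fell by 74.1% in middle-aged mice.

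Cry2, which encodes the weaker of the 2 cryptochrome repressors, was lower in lesions at both ages. Cry2 stood at 23.4, 20.6 and 18.8 CPM in naïve and 6.83, 10.2 and 9.86 CPM in injured pools of young mice. Middle-aged pools held it at 25.7, 27.8 and 39.1 CPM when naïve and 7.22, 7.99 and 9.41 CPM when injured. All naïve pools were high, with middle-aged replicate 3 above the rest, and all injured pools were low. Cry2 fell by 1.22 on the log2 scale in young (SE 0.21, edgeR adjusted p = 0.000234) and fell by 1.91 in middle-aged mice (SE 0.22, adjusted p = 3.51e-06). An opposite-strand transcript that shares 295 exon bases with Cry2, D930015M05Rik, had 0 to 6 counts per pool.

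Cry1, the other cryptochrome and a strong late repressor of the ARNTL and CLOCK pair, did not pass the test. Young pools held Cry1 at 8.75, 9.88 and 9.68 CPM when naïve and 9.32, 10.9 and 10.8 CPM when injured. It stood at 8.93, 12.6 and 12.6 CPM in naïve and 8.72, 9.34 and 10.1 CPM in injured pools of middle-aged mice. The groups overlapped at both ages. Its log2 fold change was 0.13 in young (SE 0.19, edgeR adjusted p = 0.585) and -0.28 among middle-aged pools (SE 0.19, adjusted p = 0.224). The ratio of Cry1 to Cry2 within a pool therefore turned over, as the log2 ratio of the CPM levels was -1.40, -1.05 and -0.95 in young naïve, -1.51, -1.13 and -1.62 in middle-aged naïve, 0.44, 0.09 and 0.12 in young injured and 0.27, 0.22 and 0.10 in middle-aged injured pools. Every naïve pool had more Cry2 than Cry1 reads and every injured pool more Cry1 than Cry2 reads.

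Per1 and Per2 encode the Period proteins that the clock needs most, and both are also known as fast responders to light, to glucocorticoids and to activity. The Per1 level was 12.6, 11.3 and 9.46 CPM in naïve and 9.76, 15.4 and 16.7 CPM in injured pools of young mice. In the middle-aged pools it was 10.2, 17.7 and 6.80 CPM for naïve and 8.72, 12.2 and 10.01 CPM for injured mice. The groups overlapped at both ages, and the middle-aged naïve pools spread most of all, from 6.80 to 17.7 CPM. The log2 fold change of Per1 was 0.33 in young (SE 0.31, edgeR adjusted p = 0.391) and -0.16 among middle-aged pools (SE 0.31, adjusted p = 0.685). Without middle-aged naïve replicate 2 the middle-aged value of Per1 was 0.29, so its sign rested on that pool.

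Per2 had the lowest counts of all members in naïve tissue. Per2 stood at 8.02, 4.53 and 7.20 CPM in naïve and 4.92, 7.75 and 7.68 CPM in injured pools of young mice. Middle-aged pools held it at 7.49, 5.56 and 5.44 CPM when naïve and 6.23, 4.31 and 6.30 CPM when injured. These 4 groups lay over each other, with 50 to 102 counts per pool. Its log2 fold change was 0.04 in young (SE 0.28, edgeR adjusted p = 0.909) and -0.13 among middle-aged pools (SE 0.28, adjusted p = 0.705).

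Nr1d1, the REV-ERBα gene, had the widest spread of all members in naïve tissue. Young pools held Nr1d1 at 24.9, 56.9 and 71.1 CPM when naïve and 13.4, 19.5 and 15.4 CPM when injured. It stood at 45.6, 97.6 and 26.7 CPM in naïve and 25.2, 10.8 and 12.5 CPM in injured pools of middle-aged mice. The coefficient of variation over pools was 46.5% in young naïve and 64.8% in middle-aged naïve mice, but the lowest naïve pool was still above the highest injured pool of its age, by a small margin in middle-aged mice. Nr1d1 fell by 1.66 on the log2 scale in young (SE 0.46, edgeR adjusted p = 0.00680) and fell by 1.81 in middle-aged mice (SE 0.46, adjusted p = 0.00376). Without middle-aged naïve replicate 2 the middle-aged difference was -1.15 (edgeR adjusted p = 0.0220).

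Nr1d1 overlaps the thyroid hormone receptor gene Thra on the opposite strand, with 263 shared exon bases, 8.55% of its exons. The strand setting of the counting is not given in the sources used here, and Thra had 485 to 4028 counts per pool, so part of the reads of the 2 genes could be split either way. Thra also fell with injury, by 1.61 on the log2 scale in young (SE 0.33, edgeR adjusted p = 0.000801) and fell by 2.19 in middle-aged mice (SE 0.34, adjusted p = 5.92e-05). Over the 12 pools, with group means removed, the log2 levels of Nr1d1 and Thra had r = 0.884, a description over pools that share their group and their library. What share of the Nr1d1 counts came from Thra was not tested.

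**Figure D2:**
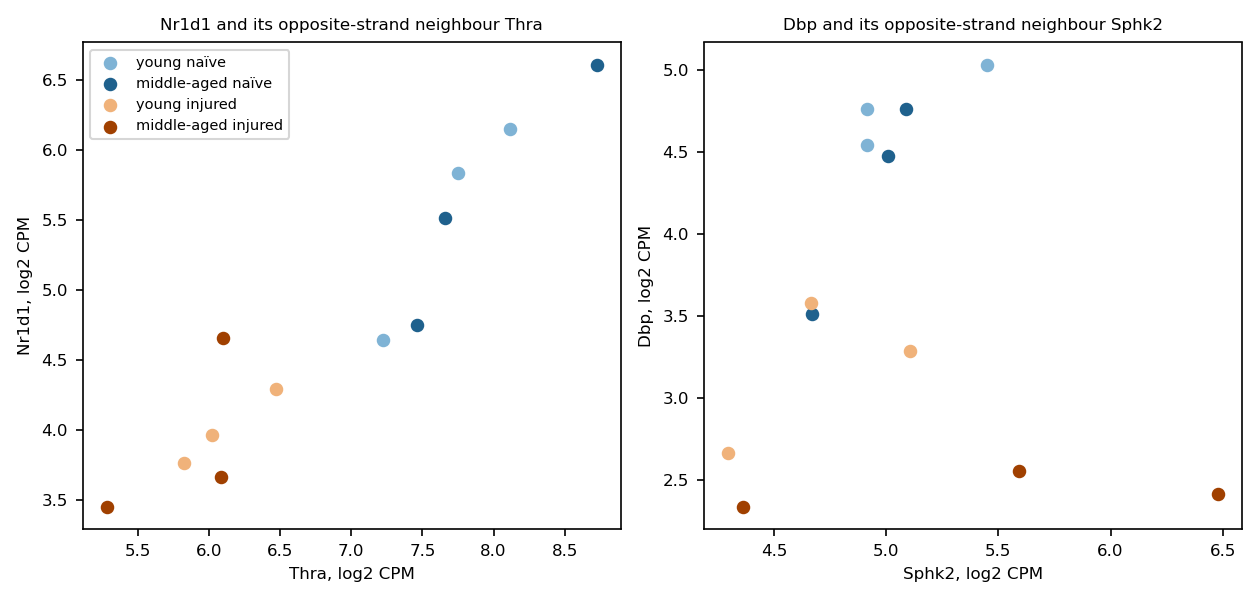
Log2 CPM of Nr1d1 against Thra (left) and of Dbp against Sphk2 (right), 1 point per pool, coloured by group. Nr1d1 and Thra lie close to 1 line, with within-group r = 0.884 over 12 pools, whereas Dbp and Sphk2 scatter, with r = 0.377. For Dbp and Sphk2 the value was 0.803 in the 6 naïve and 0.310 in the 6 injured pools. For Nr1d1 and Thra it was 0.960 in the naïve and 0.709 in the injured pools.

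Nr1d2, the REV-ERBβ gene, was also lower in lesions. The Nr1d2 level was 53.6, 49.9 and 38.5 CPM in naïve and 25.9, 23.4 and 28.2 CPM in injured pools of young mice. In the middle-aged pools it was 42.1, 35.4 and 37.2 CPM for naïve and 20.6, 17.4 and 24.3 CPM for injured mice. Injured pools were lower throughout, with a clear gap at both ages. Nr1d2 fell by 0.87 on the log2 scale in young (SE 0.17, edgeR adjusted p = 0.000464) and fell by 0.88 in middle-aged mice (SE 0.17, adjusted p = 0.000416). Of its 5403 stretches of 31 bases, 514 (9.51%) also occur in AC170187.1, a transcript that is not listed in the count table.

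Dbp, the D-box output factor, was among the members with the strongest differences. Dbp stood at 23.1, 27.01 and 32.6 CPM in naïve and 6.17, 11.8 and 9.56 CPM in injured pools of young mice. Middle-aged pools held it at 11.2, 26.97 and 22.1 CPM when naïve and 5.15, 4.87 and 5.70 CPM when injured. The middle-aged injured pools were the lowest of all, with 61 to 66 counts, and middle-aged naïve replicate 1 stood well under the other 2 naïve pools of its group. For the lowest of these counts, 61, the 95% Clopper-Pearson interval of the share was 3.85 to 6.47 CPM of the library total, which covers counting error only. Dbp fell by 1.59 on the log2 scale in young (SE 0.30, edgeR adjusted p = 0.000387) and fell by 1.94 in middle-aged mice (SE 0.31, adjusted p = 8.68e-05).

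Dbp shares 539 exon bases, 18.01% of its exons, with Sphk2 on the opposite strand. Sphk2, a sphingosine kinase gene with 255 to 1071 counts per pool, had log2 fold changes of -0.39 for young injury (SE 0.38, edgeR adjusted p = 0.410) and 0.79 for middle-aged injury (SE 0.38, adjusted p = 0.0887). With group means removed, Dbp and Sphk2 had r = 0.377 over the 12 pools, 0.803 in the 6 naïve pools and 0.310 in the 6 injured pools. What share of the Dbp counts came from Sphk2 was not tested.

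Of the 2 activators, Arntl was called and Clock was not. Young pools held Arntl at 15.9, 20.3 and 15.8 CPM when naïve and 14.3, 10.2 and 8.51 CPM when injured. It stood at 19.8, 16.8 and 34.6 CPM in naïve and 14.8, 13.9 and 12.4 CPM in injured pools of middle-aged mice. The injured pools were lower at both ages, but young injured replicate 1 came close to the naïve range and middle-aged naïve replicate 3 was far above the other 2 pools of its group. Arntl fell by 0.66 on the log2 scale in young (SE 0.27, edgeR adjusted p = 0.0496) and fell by 0.79 in middle-aged mice (SE 0.26, adjusted p = 0.0179). Without middle-aged naïve replicate 3 the middle-aged difference of Arntl was -0.41 (edgeR adjusted p = 0.141) and without middle-aged injured replicate 3 it was -0.72 (adjusted p = 0.0621). With single pools left out the young adjusted p ran from 0.0158 to 0.179, so neither call of Arntl held throughout.

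Clock was the most counted member. The Clock level was 102, 94.3 and 94.7 CPM in naïve and 111, 101 and 107 CPM in injured pools of young mice. In the middle-aged pools it was 116, 72.1 and 112 CPM for naïve and 108, 108 and 134 CPM for injured mice. The groups overlapped at both ages. Its log2 fold change was 0.13 in young (SE 0.16, edgeR adjusted p = 0.524) and 0.22 among middle-aged pools (SE 0.16, adjusted p = 0.249).

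**Figure D3:**
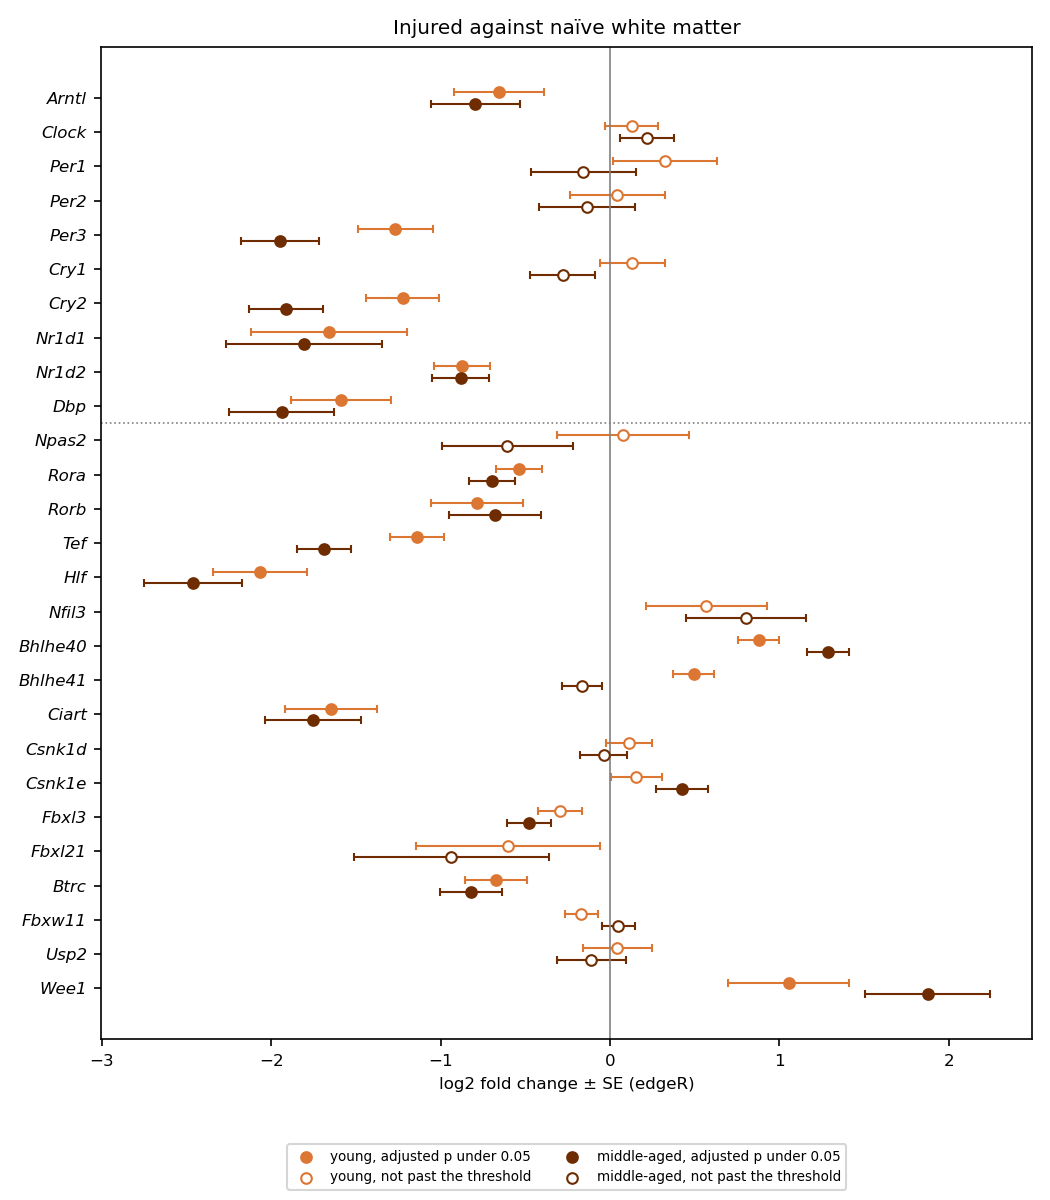
Log2 fold change ± SE of injured against naïve pools (x axis, edgeR) for the 10 members above the dotted line and 17 other clock genes below it, in young (light) and middle-aged (dark) mice. Filled points have an adjusted p under 0.05. Among members the filled points all lie to the left of 0, from -0.66 (Arntl, young) to -1.95 (Per3, middle-aged).

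The wider clock machinery was read from a list of 17 further genes, all of which were tested. Of these, 3 were higher and 6 lower in young lesions and 3 higher and 7 lower in middle-aged lesions, where 28.3% of all genes were higher and 26.3% lower in young and 29.2% and 29.3% in middle-aged mice. For these genes the log2 difference in young mice is given first and that in middle-aged mice second. Both other D-box activators fell at both ages. Tef fell by 1.14 and fell by 1.69 (edgeR adjusted p = 2.65e-05 and 5.70e-07), and Hlf fell by 2.07 and fell by 2.46 (adjusted p = 2.14e-05 and 4.94e-06). Nfil3, the repressor that competes for D-boxes and is named here after its values were seen, had log2 fold changes of 0.57 and 0.80 that did not pass (adjusted p = 0.192 and 0.0655). Rora and Rorb encode receptors that oppose REV-ERB at Arntl. Rora fell by 0.54 and fell by 0.70 (adjusted p = 0.00382 and 0.000512), and Rorb fell by 0.78 and fell by 0.68 (adjusted p = 0.0240 and 0.0443). Ciart, an E-box repressor also called Chrono, fell by 1.65 and fell by 1.75 (SE 0.27 and 0.28).

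Against this direction, the E-box repressor gene Bhlhe40 rose, with log2 fold changes of 0.88 and 1.29 (SE 0.12 and 0.12). Wee1, a cell cycle kinase gene with E-boxes under clock control, rose with log2 fold changes of 1.05 and 1.88 (SE 0.36 and 0.37, edgeR adjusted p = 0.0216 and 0.000512). Btrc, part of a ubiquitin ligase that removes PER proteins, fell by 0.67 and fell by 0.82 (SE 0.18 and 0.18). The median log2 fold change of the 17 genes was -0.17 in young and -0.48 in middle-aged mice.

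Markers of cell types moved with the same comparison. All 6 oligodendrocyte markers fell at both ages, and their summed level was 86699 to 101953 CPM in young naïve, 53009 to 60301 in middle-aged naïve, 18251 to 20256 in young injured and 7930 to 12447 in middle-aged injured pools. All 6 pan-myeloid markers rose at both ages, with a summed level of 71.8 to 102, 110 to 147, 1373 to 1394 and 1461 to 1950 CPM in the same order of groups. Of 4 astrocyte markers 3 fell at both ages, from sums of 7664 to 9836 and 7986 to 8687 CPM in naïve to 4213 to 4840 and 3112 to 4375 CPM in injured pools. Of 4 neuron markers 2 fell in young mice while 3 fell and 1 rose in middle-aged mice, with sums of 681 to 1976 and 1167 to 1239 CPM in naïve and 275 to 480 and 363 to 446 CPM in injured pools. Of 4 microglia markers 1 rose and 1 fell in young and 2 fell in middle-aged mice, both oligodendrocyte progenitor markers rose at both ages, and 1 of 3 endothelial and 1 of 2 tested Schwann cell markers rose at both ages, with 1 endothelial marker lower in middle-aged mice. In no group was a marker at 0 in all 3 pools. The part of these shifts in the levels of Per3, Cry2, Nr1d1, Nr1d2, Dbp and Arntl was not tested.

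Between ages no member was called. In naïve mice 0 of the 10 members passed the edgeR threshold between middle-aged and young pools, against 3.80% of all genes. DESeq2 also called 0, against 6.8% of the genes it tested. With edgeR 1 member had an unadjusted p under 0.05, a count that ran from 0 to 4 with single pools left out. The share of all genes under that unadjusted limit is not given here. In the main fit the member was Cry2, whose log2 fold change was 0.56 (SE 0.21, edgeR adjusted p = 0.161). Cry2 was also the only member whose naïve pools did not overlap between ages, at 18.8 to 23.4 CPM in young and 25.7 to 39.1 CPM in middle-aged mice, a pattern that 7.77% of all genes showed in this direction. Dbp stood at -0.46 (SE 0.29, adjusted p = 0.425) and Arntl at 0.46 (SE 0.26, adjusted p = 0.378) on the log2 scale, and without middle-aged naïve replicate 3 Arntl was at 0.08.

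In injured mice 0 of the 10 members passed the edgeR test between ages, against 1.15% of all genes. DESeq2 called 0 as well, against 2.89% of the genes it tested. Dbp had the only unadjusted p under 0.05 among the members, with a log2 fold change of -0.81 (SE 0.31, edgeR adjusted p = 0.334). With single pools left out, 0 to 2 members were under that unadjusted limit, and the share of all genes under it is not given here. The pools of Dbp and Per3 did not overlap between ages, being lower in middle-aged lesions, as 12.2% of all genes were. For Dbp the ranges were 6.17 to 11.8 CPM in young and 4.87 to 5.70 CPM in middle-aged lesions, and for Per3 they were 8.22 to 8.76 and 5.11 to 7.17 CPM. Per3 had a log2 fold change of -0.44 (SE 0.23, adjusted p = 0.612). With age, 5 of 6 oligodendrocyte markers were also lower in injured pools and 3 of 6 in naïve pools, and 4 of 6 pan-myeloid markers were higher in naïve pools, while their part in the levels of the members was not tested.

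**Figure D4:**
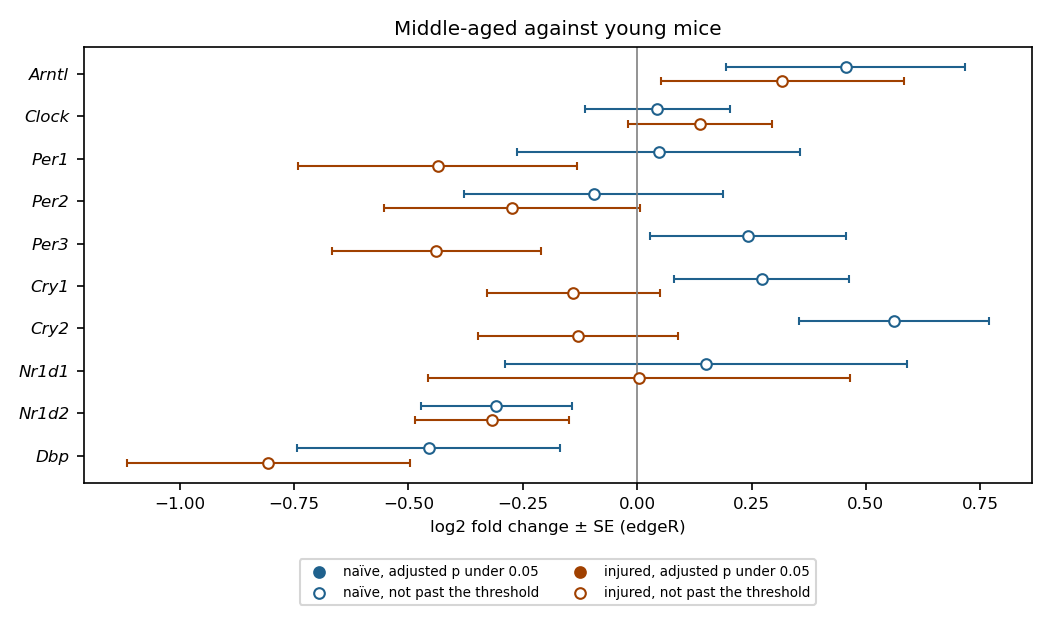
Log2 fold change ± SE of middle-aged against young pools (x axis, edgeR) for the 10 members, in naïve (blue) and injured (brown) mice. All points are open, since no member passed the threshold. The values run from -0.81 (Dbp, injured) to 0.56 (Cry2, naïve).

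Whether injury acted differently at the 2 ages was asked by the difference of the injury effects. No member passed that edgeR test (0 of 10, against 0.139% of all genes). DESeq2 called 0, against 1.72% of the genes it tested. With edgeR 2 members had an unadjusted p under 0.05. That count was 1 under RLE scaling and 0 to 2 with single pools left out, and the share of all genes is not given here. In the main fit the 2 were Cry2, at -0.69 on the log2 scale (SE 0.30, edgeR adjusted p = 0.464), and Per3, at -0.68 (SE 0.31, adjusted p = 0.493). A negative value is a deeper fall in middle-aged mice. Nr1d2 differed least, at -0.01 (SE 0.23). Of the further genes, only Bhlhe41 was called in an age comparison: it was higher in middle-aged naïve mice by 0.70 on the log2 scale (SE 0.12, edgeR adjusted p = 0.00521), rose with injury in young mice by 0.49 (adjusted p = 0.00286) and had -0.17 in middle-aged mice. The difference of its injury effects was -0.66 (SE 0.17, adjusted p = 0.147).

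Levels per length of transcript give the order of the members. In young naïve mice Nr1d1 stood highest at 16.6 CPM per kb ± 7.69 (SD, n = 3), followed by Dbp at 9.21 ± 1.59, Nr1d2 at 8.75 ± 1.45 and Clock at 7.07 ± 0.329, and the pools of neighbours in this order overlapped. Cry2 (3.31), Cry1 (2.82), Arntl (2.30), Per3 (2.14), Per1 (1.98) and Per2 (1.12 CPM per kb) followed. Clock and Cry2, Cry2 and Cry1, and Per1 and Per2 were apart, while Cry1, Arntl, Per3 and Per1 overlapped with their neighbour. In middle-aged naïve mice Nr1d1 again led, at 18.4 ± 11.9 CPM per kb.

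In lesions the order changed at its head and its foot. Clock led at 7.73 ± 0.377 CPM per kb in young and 8.499 ± 1.07 in middle-aged injured mice, before Nr1d1 at 5.24 and 5.25. Per3 came last, at 0.890 ± 0.0298 and 0.656 ± 0.111 CPM per kb. It did not lie apart from its neighbour Per2, at 1.16 and 0.959 CPM per kb, in either group of lesions. Clock and Nr1d1 were apart in young lesions and overlapped in middle-aged lesions.

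Pool by pool, the members did not deviate as 1 block. Deviations are log2 CPM of a pool minus the mean of its group. In middle-aged naïve mice replicate 2 had high Nr1d1 (0.99), Per1 (0.72) and Dbp (0.51) with low Clock (-0.44) and Arntl (-0.42). By contrast, replicate 3 had high Arntl (0.61) and Cry2 (0.36) with low Nr1d1 (-0.88) and Per1 (-0.64). Dbp was above the group mean in replicate 3 as well (0.23), so it did not go opposite to Arntl there. Young naïve replicate 1 was low in Nr1d1 (-0.90). Middle-aged injured replicate 1 was high in Nr1d1 (0.74). The naïve pools of one group therefore differed more in Nr1d1 than in any other member. Its opposite-strand neighbour Thra varied with it in the 6 naïve pools (r = 0.960). The part of mixed reads in this spread was not tested.

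Over the 12 pools the 45 pairs of members had correlations of these deviations between -0.820 and 0.909, with 5 above 0.5 and 6 below -0.5. Points of 1 group share the mean that was removed, so these values are descriptions. The highest was that of Cry1 with Dbp (0.909, and 0.920 without middle-aged naïve replicate 3) and the next that of Clock with Per3 (0.674). The lowest was that of Arntl with Per1 (-0.820, and -0.661 without the same pool), followed by Clock with Nr1d1 (-0.694). In the 6 injured pools alone Cry1 and Cry2 had r = 0.985, against 0.441 in the 6 naïve pools. Arntl and Per1 were opposed in both sets, with r = -0.844 in injured and -0.809 in naïve pools. Arntl with Nr1d1 had r = -0.420 over the 12 pools, and -0.027 without middle-aged naïve replicate 3. For Arntl with Dbp these values were -0.204 and -0.592.

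**Figure D5:**
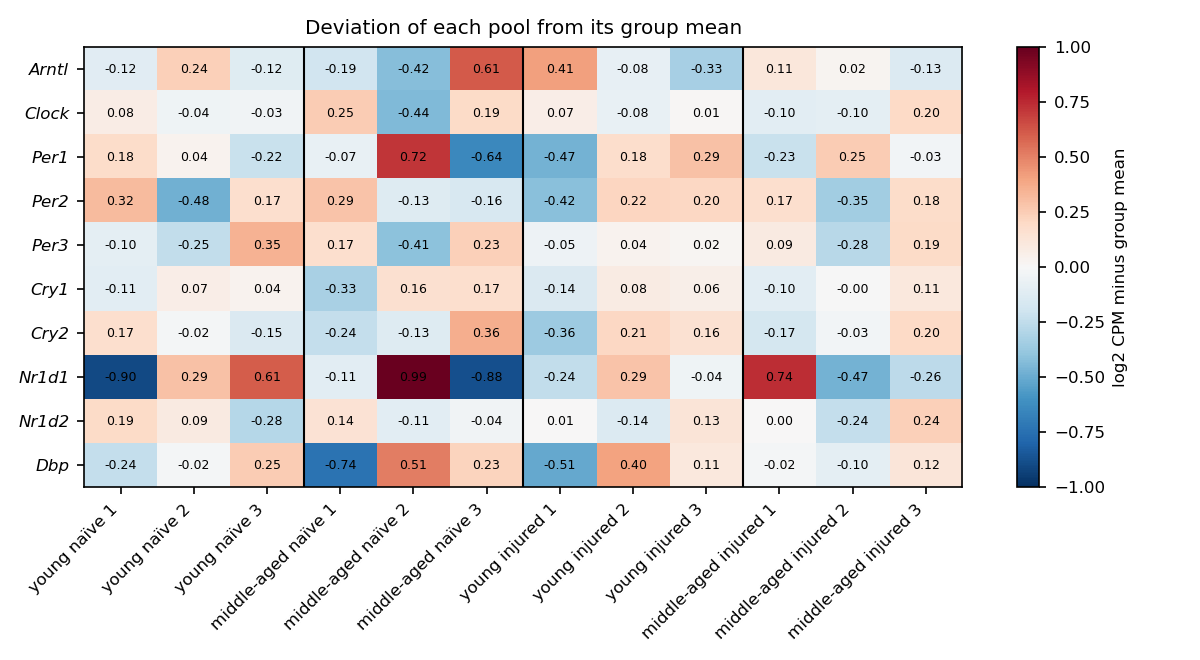
Deviation of each pool from the mean of its group in log2 CPM (colour, red above and blue below, values printed in the cells), with the 10 members as rows and the 12 pools as columns. Nr1d1 has the strongest colours, from -0.90 to 0.99, and middle-aged naïve replicates 2 and 3 deviate in opposite directions in Arntl, Clock, Per1, Per3, Cry2 and Nr1d1.

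The genes most like Dbp and Arntl were taken over the same 12 pools with group means removed, among 13084 genes. For Dbp they were Plekha7 (r = 0.970), Nt5c2 (0.945), Zdhhc14 (0.936), Serpina3n (0.933) and Shld2 (0.931), with Cry1 at rank 15. For Arntl they were Snx7 (0.918), Mtmr9 (0.912), Ptpn13 (0.910), Ric8b (0.909) and Rbms1 (0.905). Without middle-aged naïve replicate 3 the values for the Arntl list were 0.77 to 0.80. These are the highest of many correlations over few pools.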

How the data were processed

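RNA of laser-captured spinal cord white matter was sequenced in 12 pools, 3 in each of 4 groups, and groups and replicate numbers were taken from the sample labels. The authors checked reads with FastQC 0.11.4, mapped them to GRCm38 with TopHat2 2.0.10 and Bowtie 1.1.2, and deposited raw counts per gene from featureCounts. The annotation release and the strand setting are not given in the sources used here. All sample columns were used. Amplified RNA counted without molecular identifiers is not a count of independent molecules, so intervals cover counting error only. Because the strand setting is not given, reads of a gene and its opposite-strand partner may be mixed.

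Counts that passed filterByExpr (15866 genes) were fitted by edgeR 4.0.16 under R 4.3.3 with TMM scaling, 1 mean per group and no covariate, and tested with glmQLFTest. Adjustment was by Benjamini and Hochberg over these genes, and calls were made at 0.05. Standard errors were taken as |log2 fold change|/√F. A prior count of 2 was added for log2 CPM. DESeq2 1.42.0 served as an alternative, and the scripts were tested on simulated data. There edgeR recovered 50% of genes changed by 1 log2 unit and 91.9% of those changed by 2 log2 units. DESeq2 recovered 58% and 93%. Not all changed genes were recovered, so smaller differences can be missed. Of the calls, 7.84% were false with edgeR and 19.3% with DESeq2, both above the share of 0.05 set by the threshold. Of 15534 genes run with edgeR, only 100 were changed by 1 log2 unit and 99 by 2 log2 units. Injury called a far larger share of genes in the real data, so these recovery and false shares need not hold there. Alternatives were 3 other scalings, 2 other filters, a replicate block, only the pools compared, and each pool left out. Levels per kb used the union of exons in GENCODE vM21 on GRCm38. Of 46078 genes, 45143 had a symbol.

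The genes named are the 10 members, those of 17 other clock genes that passed at both ages for injury or in any age comparison, opposite-strand neighbours, and the 5 genes of mean log2 CPM of at least 1 most alike to Dbp and to Arntl. The members and lists were chosen with earlier results of these data known. The result for 1 further gene of the clock list is left out here. Pools of 1 group correlated at r = 0.937 to 0.988 on log2 CPM and none differed by less than sampling noise, so no pair was merged as 1 library deposited more than once. This does not show that the pools were collected independently.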

Additional observations from a re-analysis of the deposited data

How the results depend on the processing

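With 3 pools a group, the depth of 9834447 to 12807437 counts and the spread between pools limit small differences. The standard error for injury was largest for Nr1d1 (0.46), while Per2 had 50 to 102 counts per pool and a standard error of 0.28. The counts of members called by injury were 5 to 6 at both ages under every alternative and with each pool left out, and those for age and for the difference of injury effects stayed at 0. Except for Arntl, every member called by injury kept its call under every alternative. The young call of Arntl was lost with RLE scaling (adjusted p = 0.0505), with library totals (log2 fold change -0.46, adjusted p = 0.174) and without any 1 of the 3 young naïve pools, young injured replicates 2 and 3 or the 3 middle-aged injured pools (adjusted p from 0.0597 to 0.179). Its middle-aged call was lost without middle-aged naïve replicate 3 (-0.41, adjusted p = 0.141) and without middle-aged injured replicate 3 (adjusted p = 0.0621). Library totals moved the median over all genes to 0.20 in the young injury comparison and to -0.13 in the difference of injury effects, and the values of the members under that scaling stand relative to it. The cause of these losses was not tested.

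Pools of the same replicate number in 2 compared groups did not deviate together. Over all genes tested, their deviations from the group means had correlations of -0.113 to 0.153, so the numbers are not taken to pair the pools. With the replicate number as a block, 5 members were called in the young and 6 in the middle-aged comparison of injury, the young value of Arntl being a log2 fold change of -0.66 with an adjusted p of 0.0648, and no other call changed.

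Signs turned only for members that were not called in that comparison. Per2 was at -0.0075 for injury in young mice under upper-quartile scaling, Per1 at -0.013 for age in naïve mice with the replicate block, Nr1d1 at -0.053 for age in injured mice under library totals, and Clock at -0.0020 for the difference of injury effects under library totals. With single pools left out, the log2 fold changes for injury ran from -0.17 to 0.23 for Per2 (young), and among middle-aged pools from -0.43 to 0.29 for Per1 and from -0.22 to 0.031 for Per2. For age in naïve mice they ran from -0.079 to 0.23 for Clock, -0.40 to 0.32 for Per1, -0.31 to 0.073 for Per2 and -0.50 to 0.49 for Nr1d1, and in injured mice from -0.46 to 0.23 for Nr1d1. For the difference of injury effects they ran from -0.33 to 0.24 for Arntl, -0.092 to 0.22 for Clock, -0.37 to 0.035 for Per2, -0.62 to 0.50 for Nr1d1 and -0.14 to 0.12 for Nr1d2.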

Other observations

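Because Per1 and several other clock genes also answer to glucocorticoids, a list of 8 genes known to be induced by these hormones was read beside them. In young and in middle-aged mice 2 of the 8 were higher and 4 lower in lesions, with a median log2 fold change of -0.42 and -0.56. Of all 15866 genes tested, 28.3% were higher and 26.3% lower in young and 29.2% and 29.3% in middle-aged lesions. Of the 8, 0 passed the edgeR test between ages or for the difference of injury effects.

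The log2 ratio of Nr1d1 to Arntl CPM within a pool was 0.64, 1.48 and 2.16 in young naïve, 1.20, 2.53 and -0.37 in middle-aged naïve, -0.09, 0.93 and 0.85 in young injured and 0.76, -0.36 and 0.01 in middle-aged injured pools. Middle-aged naïve replicates 2 and 3 held the highest and the lowest of these ratios. The log2 ratio of Dbp to Arntl CPM was 0.54, 0.41 and 1.04 in young naïve, -0.81, 0.68 and -0.64 in middle-aged naïve, -1.19, 0.21 and 0.17 in young injured and -1.49, -1.48 and -1.10 in middle-aged injured pools. All 3 middle-aged injured pools thus had fewer Dbp than Arntl reads, as had 2 middle-aged naïve pools, 1 young injured pool and 0 young naïve pools. These ratios compare reads and are not divided by length. Per kb the mean level of Dbp was above that of Arntl in middle-aged naïve (6.71 against 3.15 CPM per kb) and young injured mice (3.06 against 1.46 CPM per kb), and the means were 1.75 and 1.82 CPM per kb in middle-aged injured mice, where the pools overlapped.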
